A study of Mus musculus with 12 samples.

Results

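The collagen genes of the mouse were followed through acute colitis, in mice with and without a tamoxifen-induced Cre aimed at STING in myeloid cells. All protein-coding genes whose symbol has the form Col, a number, the letter a and a number were taken, which gave 44 of the 54532 genes in the table. They were divided into 11 fibrillar collagens, 8 basement membrane collagens (the 6 chains of type IV, Col15a1 and Col18a1) and 25 others. Total colon RNA had been sequenced in 12 libraries, 3 per group. The 4 groups were untreated Tmem173fl/fl mice, untreated Tmem173iΔmye mice, colitic Tmem173fl/fl mice and colitic Tmem173iΔmye mice. Tmem173 is the gene of STING, an adaptor in the sensing of cytosolic DNA, and both genotypes carried its floxed allele on the C57BL/6N background. Tmem173iΔmye mice carried in addition a Lyz2-Cre allele whose recombinase acts only after tamoxifen, and mice of both genotypes received tamoxifen 5 times. Mice of all 4 groups were 6 to 8 weeks old. Colitic mice drank 2.5% to 3% dextran sulfate sodium (DSS) for 7 days and then water for 1 day, and untreated mice drank water. Lyz2 drives the Cre in myeloid cells, so a deletion is not aimed at fibroblasts, endothelial cells or epithelial cells. These libraries do not measure the gene by cell type. In RNA of the whole colon, more cells of a type and more RNA per cell cannot be told apart.

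Collagens are the main structural proteins of the extracellular matrix. Each is built from chains with long stretches of the repeat Gly-X-Y, in which glycine recurs at a fixed spacing so that the chains can wind into a helix. Fibrillar collagens (types I, II, III, V, XI, XXIV and XXVII) assemble into the fibrils that give the submucosa its tensile strength. Type IV collagen forms the sheet-like network of basement membranes under epithelium and around blood vessels, smooth muscle and nerves, where types XV and XVIII are attached. The other collagens decorate fibrils (the FACIT group, such as types XII and XIV), form beaded microfilaments (type VI), anchor the epithelium (type VII), or span the cell membrane (types XIII, XVII, XXIII and XXV). Fibroblasts are the chief source of fibrillar collagen in the gut, and vascular cells and fibroblasts of type IV.

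The classes differ in their genes as well as in their place in the tissue. In the GENCODE release 21 annotation of GRCm38, whose gene coordinates equal those deposited for 44 of 44 members, the coding sequence of a fibrillar collagen holds 21 to 33 exons of exactly 54 bases. Basement membrane collagens hold 1 to 3 such exons and the others 0 to 28, with Col22a1, at 28, inside the fibrillar range. The longest unbroken run of triplets that begin with a glycine codon had a median of 338 triplets (216 to 344) in the 11 fibrillar genes, 41 (30 to 66) in the 8 basement membrane genes and 52 (23 to 113) in the 25 others. One 54-base coding exon is shown for the chains on which the results turn, because it carries the repeat that makes each gene a collagen. The sequences run 5′ to 3′ in the sense of the gene on GRCm38, and capitals mark the glycine codon that opens each Gly-X-Y triplet, not a further glycine at X or Y.
Col1a1 exon 8, chr11:94939904-94939957, forward strand: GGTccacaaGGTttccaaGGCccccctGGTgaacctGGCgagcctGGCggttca
Col1a2 exon 8, chr6:4515481-4515534, forward strand: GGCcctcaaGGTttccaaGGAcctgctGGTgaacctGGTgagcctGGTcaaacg
Col3a1 exon 6, chr1:45325360-45325413, forward strand: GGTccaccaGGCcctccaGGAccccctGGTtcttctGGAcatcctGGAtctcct
Col5a2 exon 6, chr1:45434892-45434945, reverse strand: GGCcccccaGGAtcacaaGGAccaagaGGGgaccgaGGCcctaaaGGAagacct
Col4a1 exon 7, chr8:11245211-11245264, reverse strand: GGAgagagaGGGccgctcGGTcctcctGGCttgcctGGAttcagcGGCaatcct
Col4a2 exon 17, chr8:11413979-11414032, forward strand: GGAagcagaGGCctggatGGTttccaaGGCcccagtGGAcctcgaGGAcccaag
Col18a1 exon 27, chr10:77067379-77067432, reverse strand: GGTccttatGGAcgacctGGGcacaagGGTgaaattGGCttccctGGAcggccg
Col6a1 exon 9, chr10:76719623-76719676, reverse strand: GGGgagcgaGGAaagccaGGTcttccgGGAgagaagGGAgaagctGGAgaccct
Col12a1 exon 55, chr9:79614349-79614402, reverse strand: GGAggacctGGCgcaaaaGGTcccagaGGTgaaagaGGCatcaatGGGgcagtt
Col7a1 exon 48, chr9:108967172-108967225, forward strand: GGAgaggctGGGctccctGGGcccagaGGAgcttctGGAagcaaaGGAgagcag
Every exon shown begins with a glycine codon, and each of its 6 triplets does.

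Library totals ran from 13823237 to 18718915 counts, and no 2 of the 12 libraries were identical. The targeted gene, Tmem173, was at 6.07 to 10.4 FPKM (fragments scaled to gene length and library size) in untreated Tmem173fl/fl, 6.20 to 9.12 in untreated Tmem173iΔmye, 16.6 to 19.2 in colitic Tmem173fl/fl and 10.2 to 20.7 in colitic Tmem173iΔmye mice. A loss was not detectable in colitic whole colon in these libraries (log2 difference -0.28, edgeR adjusted p = 0.602). The paper itself reported a smaller rise of Tmem173 mRNA in inflamed colon of Tmem173iΔmye mice, and loss of STING staining in myeloid cells. Replicate 5 of the colitic Tmem173iΔmye mice stood apart from the other 11 libraries on the second principal component of all tested genes, at -113.9 against -26.5 to 31.6. The labels give no sex, and 3 libraries (the untreated replicates 3 of either genotype and colitic Tmem173iΔmye replicate 5) had Xist, an RNA of female cells, above 1 FPKM. Prss2, a trypsinogen of the pancreas, ran from 0 to 310.3 FPKM in untreated and from 0.0727 to 1318 FPKM in colitic libraries and differed widely within each group. Counts of called collagens are also given with the Xist libraries left out and with a term for Prss2 in the fit. The labels do not say whether replicates are separate animals, so the p-values measure only the spread between these libraries.

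In the untreated colon the collagen genes summed to 247 ± 13.0 FPKM in Tmem173fl/fl and 256 ± 32.4 FPKM in Tmem173iΔmye mice (mean and SD, n = 3 each). Col3a1, the chain of type III collagen found in soft and distensible tissues, was the highest of all 44 genes in each group by its mean and made up 21.1% of the sum in untreated Tmem173fl/fl mice. It was followed there by Col1a1 at 32.8 ± 6.12 FPKM and Col6a1 at 32.0 ± 2.30 FPKM, which overlapped, and then by Col1a2 at 20.6 ± 3.69 and Col4a1 at 19.6 ± 1.31 FPKM, which overlapped too. The 3 highest genes held 47.3% of the sum and the 10 highest 84.8%. At the other end, 6 genes stayed below 0.1 FPKM in all 12 libraries and were not tested: Col2a1, Col9a1, Col10a1, Col19a1 and Col26a1, which never exceeded 0.098 FPKM, and Col4a3, which reached 0.099 FPKM. Col2a1, Col9a1 and Col10a1 are collagens of cartilage. The cartilage and bone markers were likewise near 0, with a sum of at most 2.68 FPKM over 8 genes in any library and Acan, the main cartilage proteoglycan, at 0 in 3 of the 4 groups.

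After DSS the sum rose to 2026, 1639 and 1799 FPKM in the 3 colitic Tmem173fl/fl libraries, from 262, 239 and 239.9 FPKM in the untreated ones. The share of all counts that fell on collagen genes was 0.187% to 0.205% in untreated and 1.47% to 1.76% in colitic Tmem173fl/fl libraries. In colitic Tmem173iΔmye mice the sum was 742, 445 and 440.2 FPKM, from 275, 219 and 276 FPKM without DSS. All 3 colitic Tmem173iΔmye libraries thus lay above the 6 untreated libraries and below the 3 colitic Tmem173fl/fl libraries. The log2 difference was 2.88 for DSS in Tmem173fl/fl, 1.04 for DSS in Tmem173iΔmye and -1.79 between colitic genotypes (Tmem173iΔmye against Tmem173fl/fl), and the permutation test (exact, two-sided) gave p = 0.1 for each, the smallest that 3 against 3 libraries allow. Untreated genotypes differed by 0.05 on the log2 scale (exact permutation p = 0.8).

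**Figure D1:**
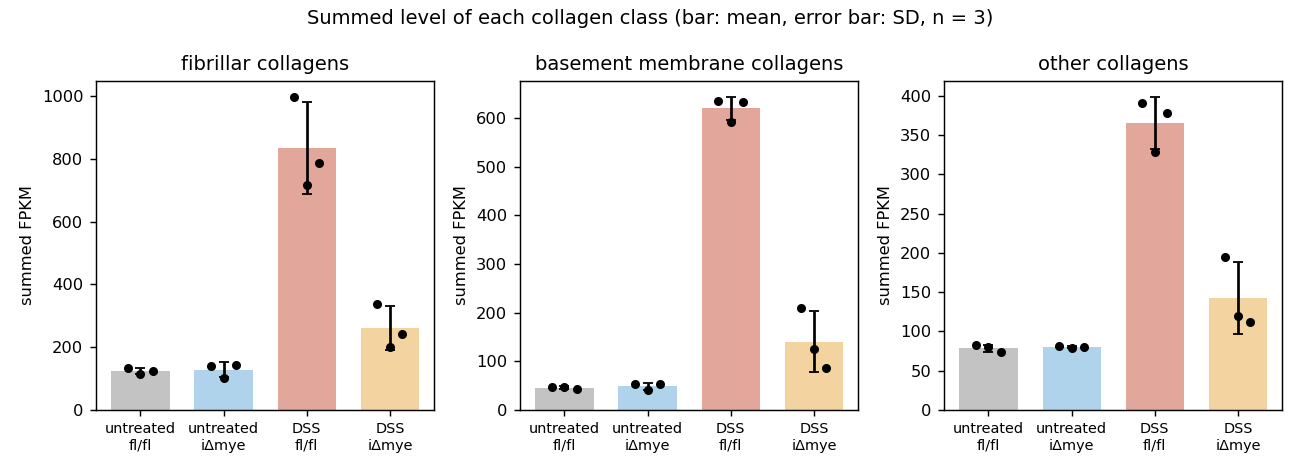
Summed FPKM of fibrillar, basement membrane and other collagen genes (vertical axes, each with its own scale from 0) in the 4 groups. Bars are means, error bars SD over 3 libraries and dots the libraries. In each class the colitic Tmem173fl/fl libraries sit above all others, and the basement membrane sum rises to 593 to 635 FPKM from 42.0 to 47.6 FPKM.

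Basement membrane collagens summed to 47.6, 46.6 and 42.0 FPKM in untreated and 635, 593 and 634 FPKM in colitic Tmem173fl/fl mice, a log2 difference of 3.77. Fibrillar collagens went from 132, 113 and 124 FPKM to 999, 717 and 787 FPKM (2.75), and the other collagens from 82.0, 80.0 and 73.6 FPKM to 391, 328 and 378 FPKM (2.22). The basement membrane share of the collagen sum was therefore 18.4% ± 1.02 without DSS and 34.3% ± 2.56 with it (SD, n = 3 each, exact permutation p = 0.1). The share of the other collagens moved from 31.8% ± 1.46 to 20.1% ± 0.866 (exact permutation p = 0.1, n = 3 each), while that of the fibrillar collagens, 49.8% ± 2.48 and 45.6% ± 3.22, overlapped (exact permutation p = 0.2, n = 3 each). In Tmem173iΔmye mice the basement membrane share was 18.8% ± 0.540 without DSS and 25.3% ± 4.81 with it, and replicate 5, at 19.7%, was just above the untreated range of 18.2% to 19.1%.

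The first comparison asked which collagen genes answered to DSS in mice without the Cre. Of the 38 genes tested, DSS called 30 higher and 0 lower in this genotype, at an edgeR adjusted p under 0.05 and a log2 fold change of at least 1. Over all 24102 genes tested, 14.9% were called higher, 7.61% lower and 22.5% in either direction. By class, 9 of 10 fibrillar, 5 of 7 basement membrane and 16 of 21 other collagens were called. The median log2 fold change was 2.16 over the 38 collagens and 0.03 over all genes. No overlap between the 3 colitic and the 3 untreated libraries, with the colitic ones higher, was seen for 33 collagens and for 25.1% of all genes. A gene that passes the minimum level only through the colitic libraries had to be higher there, so it was counted how many pass on the 6 untreated libraries alone: 33 do, and 26 of these were called. Col4a4, Col6a6, Col11a1, Col17a1 and Col22a1 do not, and the class counts and median above include them. All but Col6a6 are also among the collagens without overlap. The number of called collagens stayed between 30 and 31 when each of the 6 libraries was left out in turn, including 30 without untreated replicate 3, the 1 library above 1 FPKM of Xist here, and was 26 with a term for Prss2. By limma it was 27 on log2(FPKM + 0.1) and 21 on log2(FPKM + 1).

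Col18a1, whose product is cut to release the angiogenesis inhibitor endostatin, had the largest change (chr10:77052178-77166548, reverse strand). Its level was 4.52, 4.22 and 3.54 FPKM in untreated Tmem173fl/fl mice, 4.97, 3.31 and 5.59 in untreated Tmem173iΔmye mice, 149.8, 142 and 147 in colitic Tmem173fl/fl mice and 34.4, 20.9 and 6.13 in colitic Tmem173iΔmye mice. The colitic Tmem173fl/fl values lay within a narrow band far above all others, and those of colitic Tmem173iΔmye mice were spread from just above the untreated range upwards. The log2 fold change for DSS was 5.17 ± 0.17 (SE, edgeR adjusted p = 4.23e-07) in Tmem173fl/fl mice, a 36.1-fold rise. By mean level Col18a1 had rank 13 of the 44 genes in untreated and rank 6 in colitic Tmem173fl/fl mice. Col15a1, its closest relative, which forms restin and sits in the same zone of vessels and muscle, was at 3.75, 3.86 and 4.28 FPKM in untreated Tmem173fl/fl mice, 5.12, 2.99 and 5.04 in untreated Tmem173iΔmye mice, 22.6, 15.96 and 16.4 in colitic Tmem173fl/fl mice and 9.28, 6.17 and 7.21 in colitic Tmem173iΔmye mice. Its colitic groups overlapped neither each other nor the untreated libraries, and its change in Tmem173fl/fl mice was 2.22 ± 0.17 (SE, edgeR adjusted p = 8.58e-06). The ratio of Col18a1 to Col15a1 was 0.827 to 1.203 in untreated and 6.63 to 8.96 in colitic Tmem173fl/fl mice (exact permutation p = 0.1, n = 3 each).

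Col4a1 and Col4a2 encode the chains of the type IV network found in nearly all basement membranes. They lie head to head (chr8:11198423-11312826, reverse strand and chr8:11312805-11449287, forward strand), and their gene models overlap at the start. Col4a1 was at 20.4, 20.2 and 18.04 FPKM in untreated Tmem173fl/fl mice, 22.2, 17.6 and 21.9 in untreated Tmem173iΔmye mice, 247, 229.8 and 257 in colitic Tmem173fl/fl mice and 87.2, 55.1 and 36.4 in colitic Tmem173iΔmye mice. For Col4a2 the values were 14.6, 15.5 and 12.6 FPKM in untreated Tmem173fl/fl mice, 16.7, 13.4 and 16.4 in untreated Tmem173iΔmye mice, 209.6, 200.2 and 208 in colitic Tmem173fl/fl mice and 73.2, 38.3 and 31.99 in colitic Tmem173iΔmye mice. For both genes the untreated groups overlapped, all colitic Tmem173iΔmye libraries lay above them, and the colitic Tmem173fl/fl libraries were highest without overlap. The changes in Tmem173fl/fl mice were 3.66 ± 0.16 for Col4a1 (edgeR adjusted p = 6.08e-07) and 3.87 ± 0.16 for Col4a2 (edgeR adjusted p = 6.03e-07). The ratio of Col4a1 to Col4a2 was 1.30 to 1.43 without and 1.15 to 1.24 with DSS in Tmem173fl/fl mice (exact permutation p = 0.1, n = 3 each). By mean level in Tmem173fl/fl mice, Col4a1 had rank 5 among the collagens without DSS and rank 2, after Col3a1, with it. With DSS its libraries overlapped those of Col1a1, the next gene.

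The minor type IV chains, which form the specialised networks of kidney, lung and smooth muscle, had smaller changes or low levels. Col4a5 was at 2.86, 1.88 and 2.44 FPKM in untreated Tmem173fl/fl mice, 2.35, 1.48 and 2.49 in untreated Tmem173iΔmye mice, 4.66, 3.66 and 4.23 in colitic Tmem173fl/fl mice and 3.25, 2.35 and 3.69 in colitic Tmem173iΔmye mice. Its change in Tmem173fl/fl mice, 0.82 ± 0.19 (SE, edgeR adjusted p = 0.00766), was below the fold that was required. Col4a6, which starts 1309 bases from Col4a5 on the opposite strand of the X chromosome, was at 1.32, 0.8102 and 0.931 FPKM in untreated Tmem173fl/fl mice, 0.944, 0.881 and 1.05 in untreated Tmem173iΔmye mice, 1.59, 1.48 and 1.41 in colitic Tmem173fl/fl mice and 1.86, 1.15 and 1.13 in colitic Tmem173iΔmye mice, with a change of 0.57 ± 0.23 (SE, edgeR adjusted p = 0.0774). Col4a4 stayed at a low level, 0.0485, 0.0373 and 0.0752 FPKM in untreated Tmem173fl/fl mice, 0.0782, 0.0441 and 0.0557 in untreated Tmem173iΔmye mice, 0.1599, 0.2605 and 0.248 in colitic Tmem173fl/fl mice and 0.127, 0.127 and 0.128 in colitic Tmem173iΔmye mice, and was called at 2.05 ± 0.42 (SE, edgeR adjusted p = 0.00397). It was tested only because of its level in colitic libraries. Col4a3, at 0.030 to 0.099 FPKM in all 12 libraries, starts 72 bases from Col4a4 and was not tested.

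Among the fibrillar collagens, the chains of types I, III and V all rose. Col3a1 (chr1:45311538-45349706, forward strand) was at 50.3, 48.2 and 57.9 FPKM in untreated Tmem173fl/fl mice, 59.7, 43.8 and 59.8 in untreated Tmem173iΔmye mice, 451, 339 and 367 in colitic Tmem173fl/fl mice and 145, 88.4 and 108 in colitic Tmem173iΔmye mice. Col1a1, the major chain of type I collagen, was at 39.7, 30.5 and 28.1 FPKM in untreated Tmem173fl/fl mice, 38.5, 24.2 and 38.4 in untreated Tmem173iΔmye mice, 295, 166 and 203 in colitic Tmem173fl/fl mice and 94.3, 50.4 and 57.2 in colitic Tmem173iΔmye mice. Its partner Col1a2 was at 24.6, 17.3 and 20.04 FPKM in untreated Tmem173fl/fl mice, 22.2, 16.5 and 23.6 in untreated Tmem173iΔmye mice, 128, 97.4 and 97.3 in colitic Tmem173fl/fl mice and 47.4, 32.1 and 43.5 in colitic Tmem173iΔmye mice. For each of these genes the colitic Tmem173fl/fl libraries were above all others, and replicate 1 was the highest of them. The changes were 2.902 ± 0.18 (SE, edgeR adjusted p = 2.71e-06) for Col3a1, 2.77 ± 0.24 for Col1a1 and 2.397 ± 0.19 for Col1a2. The ratio of Col1a1 to Col1a2 was 1.40 to 1.76 without and 1.70 to 2.30 with DSS, which overlapped (exact permutation p = 0.2, n = 3 each), and that of Col3a1 to Col1a1 overlapped as well (exact permutation p = 0.7, n = 3 each).

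Type V collagen is built into the core of type I fibrils and limits their thickness. Col5a1 was at 8.51, 7.17 and 7.84 FPKM in untreated Tmem173fl/fl mice, 8.901, 7.15 and 9.83 in untreated Tmem173iΔmye mice, 60.7, 51.1 and 56.2 in colitic Tmem173fl/fl mice and 25.4, 14.7 and 14.2 in colitic Tmem173iΔmye mice. Col5a2, which lies tail to tail with Col3a1 at a distance of 24615 bases, was at 5.68, 5.58 and 6.67 FPKM in untreated Tmem173fl/fl mice, 6.804, 5.23 and 6.28 in untreated Tmem173iΔmye mice, 44.5, 43.5 and 40.2 in colitic Tmem173fl/fl mice and 14.4, 10.6 and 11.5 in colitic Tmem173iΔmye mice. Col5a3, the chain of restricted distribution, was at 1.99, 1.86 and 2.01 FPKM in untreated Tmem173fl/fl mice, 2.37, 2.02 and 2.797 in untreated Tmem173iΔmye mice, 15.04, 15.04 and 18.1 in colitic Tmem173fl/fl mice and 6.39, 2.72 and 3.91 in colitic Tmem173iΔmye mice. These 3 chains rose by nearly equal amounts, 2.85 ± 0.15, 2.85 ± 0.15 and 3.06 ± 0.14 on the log2 scale, and the ratio of Col5a1 to Col5a2 stayed at 1.17 to 1.499 without and 1.18 to 1.40 with DSS (exact permutation p = 1, n = 3 each). Col27a1, a fibrillar collagen of developing tissues, was at 1.15, 1.32 and 1.14 FPKM in untreated Tmem173fl/fl mice, 1.32, 1.44 and 1.28 in untreated Tmem173iΔmye mice, 4.39, 4.34 and 3.93 in colitic Tmem173fl/fl mice and 3.37, 1.696 and 1.59 in colitic Tmem173iΔmye mice. It rose by 1.83 ± 0.14 (SE, edgeR adjusted p = 9.04e-06). Another 2 fibrillar collagens of low level were called as well. Col24a1 was at 0.193, 0.104 and 0.226 FPKM in untreated Tmem173fl/fl mice, 0.319, 0.146 and 0.202 in untreated Tmem173iΔmye mice, 0.761, 0.475 and 0.644 in colitic Tmem173fl/fl mice and 0.373, 0.362 and 1.38 in colitic Tmem173iΔmye mice, where replicate 5 of the colitic Tmem173iΔmye mice was the highest of the 12. Col11a1 was at 0.0289, 0.0621 and 0.106 FPKM in untreated Tmem173fl/fl mice, 0.102, 0.0597 and 0.0603 in untreated Tmem173iΔmye mice, 0.288, 0.344 and 0.358 in colitic Tmem173fl/fl mice and 0.106, 0.183 and 0.149 in colitic Tmem173iΔmye mice and passed the minimum level only through the colitic libraries. Their changes were 1.85 ± 0.36 and 2.31 ± 0.42. Col11a2, which was not called, was at 0.62 ± 0.28 (SE, edgeR adjusted p = 0.115).

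**Figure D2:**
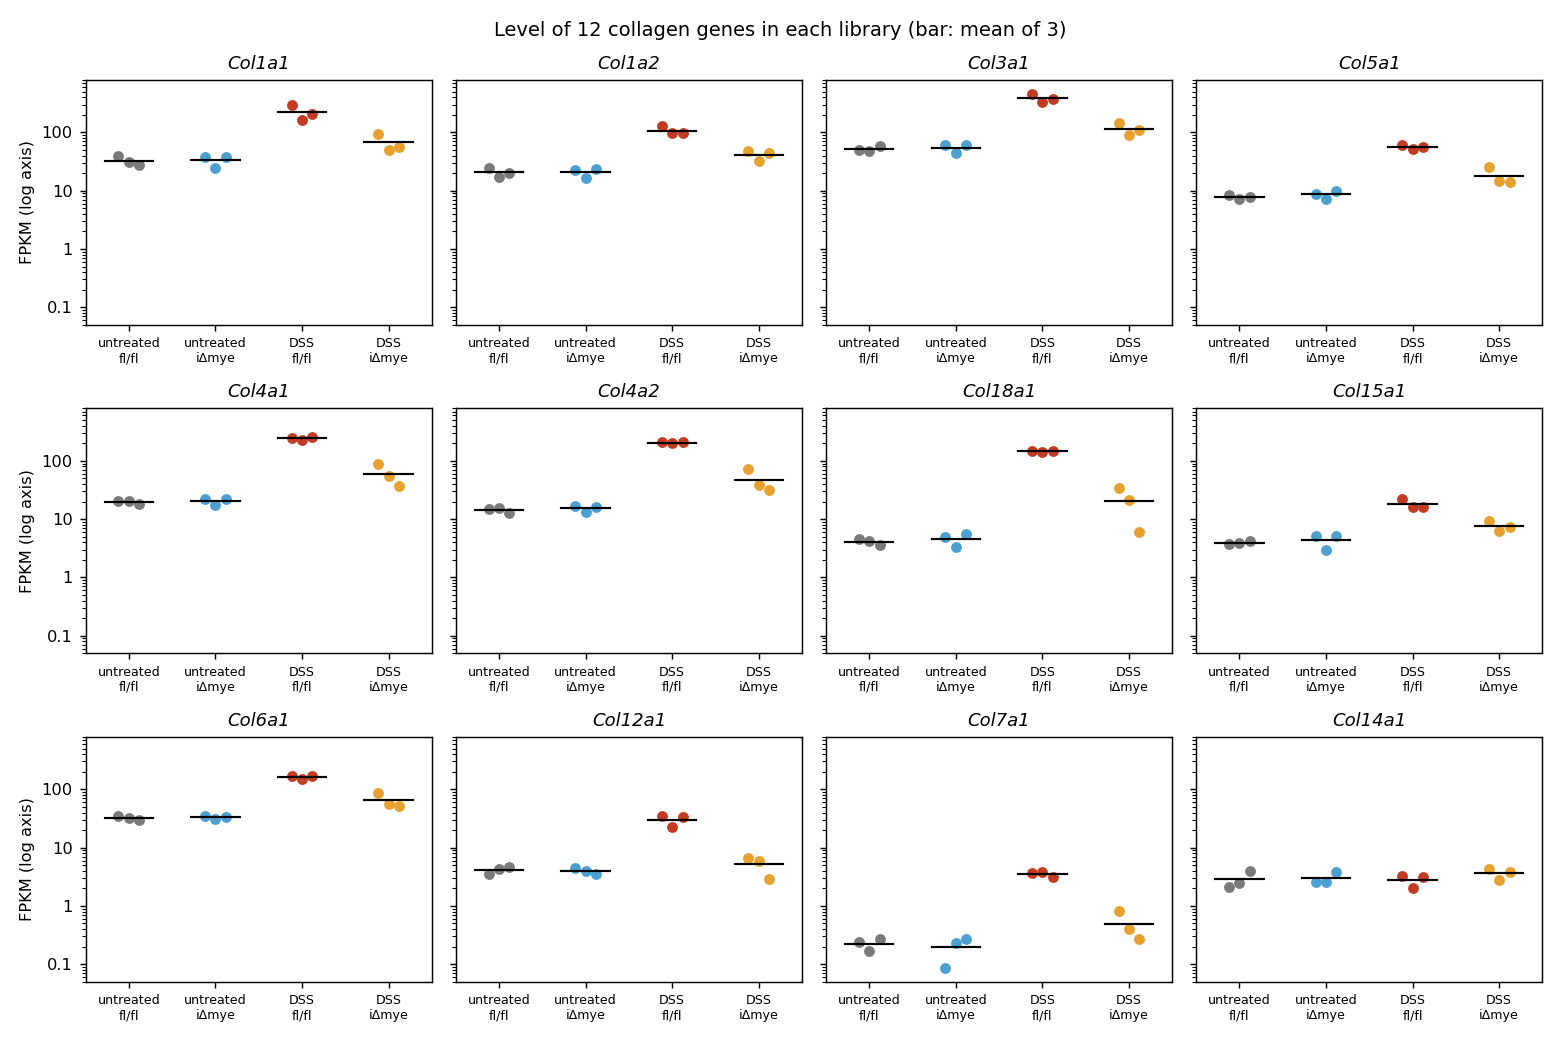
FPKM of 12 collagen genes (log axes, all panels on the same scale) in each library of the 4 groups, with a bar at the mean of 3. Col18a1 and Col7a1 show the widest gap on the log axes between the means of untreated and colitic Tmem173fl/fl libraries, and Col14a1 stays between 2.04 and 4.33 FPKM throughout.

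Of the collagens outside these 2 classes, type VI collagen had the highest level. It forms microfilaments that link cells and basement membranes to the interstitial matrix. Col6a1 was at 34.4, 31.7 and 29.8 FPKM in untreated Tmem173fl/fl mice, 34.7, 30.8 and 33.1 in untreated Tmem173iΔmye mice, 171, 153 and 172 in colitic Tmem173fl/fl mice and 86.95, 55.4 and 51.8 in colitic Tmem173iΔmye mice. Col6a2, which lies beside it on chromosome 10, was at 15.9, 15.6 and 13.5 FPKM in untreated Tmem173fl/fl mice, 13.8, 12.5 and 15.8 in untreated Tmem173iΔmye mice, 87.4, 73.3 and 84.2 in colitic Tmem173fl/fl mice and 38.8, 24.5 and 18.6 in colitic Tmem173iΔmye mice. Col6a3, the longest chain of the classical assembly, was at 10.6, 8.88 and 8.72 FPKM in untreated Tmem173fl/fl mice, 9.002, 6.83 and 8.48 in untreated Tmem173iΔmye mice, 38.2, 25.2 and 35.8 in colitic Tmem173fl/fl mice and 22.4, 9.52 and 11.2 in colitic Tmem173iΔmye mice. All 3 rose in Tmem173fl/fl mice, by 2.39 ± 0.15, 2.46 ± 0.15 and 1.83 ± 0.19. Col6a3 rose the least, and the ratio of Col6a1 to Col6a3 went from 3.25 to 3.58 without DSS to 4.49 to 6.07 with it (exact permutation p = 0.1, n = 3 each). In Tmem173iΔmye mice this ratio was 3.85 to 4.51 without and 3.89 to 5.82 with DSS (exact permutation p = 0.3, n = 3 each), and the untreated genotypes did not overlap either (exact permutation p = 0.1, n = 3 each). The alternative chains form a cluster on chromosome 9 and had low levels. Col6a4 was at 1.92, 2.12 and 1.37 FPKM in untreated Tmem173fl/fl mice, 1.69, 2.37 and 1.23 in untreated Tmem173iΔmye mice, 6.27, 6.796 and 4.96 in colitic Tmem173fl/fl mice and 4.76, 2.13 and 0.709 in colitic Tmem173iΔmye mice. Col6a5 was at 0.383, 0.798 and 0.267 FPKM in untreated Tmem173fl/fl mice, 0.579, 0.671 and 0.748 in untreated Tmem173iΔmye mice, 4.01, 1.58 and 1.06 in colitic Tmem173fl/fl mice and 1.28, 1.04 and 1.18 in colitic Tmem173iΔmye mice. These 2 were called, at 1.76 ± 0.20 and 2.22 ± 0.52. With single libraries left out, Col6a5 stayed called and its change ranged from 1.45 to 2.78. Col6a6, at 0.013 to 0.245 FPKM in the 12 libraries, was not called in Tmem173fl/fl mice (1.97 ± 0.79 (SE, edgeR adjusted p = 0.0802)) and was called without replicate 3 of the colitic group.

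Types XII and XIV are both FACIT collagens that coat fibrils, and only the first was called. Col12a1 was at 3.56, 4.24 and 4.58 FPKM in untreated Tmem173fl/fl mice, 4.43, 4.03 and 3.56 in untreated Tmem173iΔmye mice, 34.5, 22.8 and 33.04 in colitic Tmem173fl/fl mice and 6.66, 5.895 and 2.89 in colitic Tmem173iΔmye mice. In colitic Tmem173iΔmye mice replicates 1 and 2 were above and replicate 5 below all 6 untreated libraries. Col14a1 was at 2.13, 2.44 and 4.03 FPKM in untreated Tmem173fl/fl mice, 2.53, 2.57 and 3.796 in untreated Tmem173iΔmye mice, 3.200, 2.05 and 3.13 in colitic Tmem173fl/fl mice and 4.33, 2.81 and 3.78 in colitic Tmem173iΔmye mice. Its groups overlapped in every comparison. The log2 fold change for DSS in Tmem173fl/fl mice was 2.88 ± 0.20 (SE, edgeR adjusted p = 5.55e-06) for Col12a1 and -0.03 ± 0.27 (SE, edgeR adjusted p = 0.949) for Col14a1. The ratio of Col12a1 to Col14a1 was 1.14 to 1.74 without and 10.6 to 11.1 with DSS in Tmem173fl/fl mice (exact permutation p = 0.1, n = 3 each), against 0.938 to 1.75 and 0.765 to 2.10 in Tmem173iΔmye mice (exact permutation p = 1, n = 3 each). Of the remaining FACIT collagens, Col16a1 was at 5.61, 4.52 and 4.24 FPKM in untreated Tmem173fl/fl mice, 4.52, 3.87 and 5.71 in untreated Tmem173iΔmye mice, 17.7, 15.2 and 18.8 in colitic Tmem173fl/fl mice and 11.1, 5.68 and 10.04 in colitic Tmem173iΔmye mice, and it rose by 1.86 ± 0.15 (SE, edgeR adjusted p = 1.54e-05). Col20a1 was at 1.37, 1.35 and 0.871 FPKM in untreated Tmem173fl/fl mice, 1.11, 0.751 and 1.29 in untreated Tmem173iΔmye mice, 3.15, 3.44 and 4.69 in colitic Tmem173fl/fl mice and 2.96, 2.16 and 2.13 in colitic Tmem173iΔmye mice. Col9a2 was at 0.3803, 0.319 and 0.198 FPKM in untreated Tmem173fl/fl mice, 0.4405, 0.454 and 0.612 in untreated Tmem173iΔmye mice, 1.01, 1.02 and 1.09 in colitic Tmem173fl/fl mice and 0.919, 0.912 and 1.05 in colitic Tmem173iΔmye mice. Both were called, at 1.67 ± 0.24 and 1.81 ± 0.35.

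Col7a1, the collagen of the anchoring fibrils that hold epithelium to its stroma, had the second largest change of all collagens, from a low level. It was at 0.236, 0.167 and 0.268 FPKM in untreated Tmem173fl/fl mice, 0.0864, 0.233 and 0.2703 in untreated Tmem173iΔmye mice, 3.703, 3.84 and 3.19 in colitic Tmem173fl/fl mice and 0.809, 0.406 and 0.271 in colitic Tmem173iΔmye mice. The change in Tmem173fl/fl mice was 4.01 ± 0.22 (SE, edgeR adjusted p = 1.76e-06), a 16.1-fold rise. Of the transmembrane collagens, Col13a1, a component of cell-matrix junctions, was at 0.224, 0.2004 and 0.107 FPKM in untreated Tmem173fl/fl mice, 0.193, 0.305 and 0.206 in untreated Tmem173iΔmye mice, 2.16, 2.44 and 1.31 in colitic Tmem173fl/fl mice and 0.618, 0.653 and 0.347 in colitic Tmem173iΔmye mice. Col23a1 was at 1.103, 2.48 and 2.17 FPKM in untreated Tmem173fl/fl mice, 1.87, 3.21 and 1.45 in untreated Tmem173iΔmye mice, 10.4, 11.2 and 7.68 in colitic Tmem173fl/fl mice and 8.45, 4.39 and 2.68 in colitic Tmem173iΔmye mice. They rose by 3.503 ± 0.37 and 2.37 ± 0.28. The other 2 transmembrane collagens, Col17a1 and Col25a1, were called at 2.47 and 1.42 with levels of at most 0.406 FPKM. Col17a1 was tested only because of its colitic libraries, and its change ranged from 2.08 to 3.16 with single libraries left out. Col28a1 was at 0.705, 0.968 and 0.638 FPKM in untreated Tmem173fl/fl mice, 1.06, 1.46 and 0.6996 in untreated Tmem173iΔmye mice, 1.91, 1.89 and 1.88 in colitic Tmem173fl/fl mice and 1.28, 1.201 and 1.49 in colitic Tmem173iΔmye mice and rose by 1.31 ± 0.23. Col22a1, likewise tested only through the colitic libraries, was at 2.11 with a level of at most 0.394 FPKM. The short-chain collagens of vessel walls did not pass the test, with Col8a1 at 0.61 ± 0.23 (edgeR adjusted p = 0.0624) and Col8a2 at -0.02 ± 0.44, nor did Col9a3 at 0.29 ± 0.47.

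**Figure D3:**
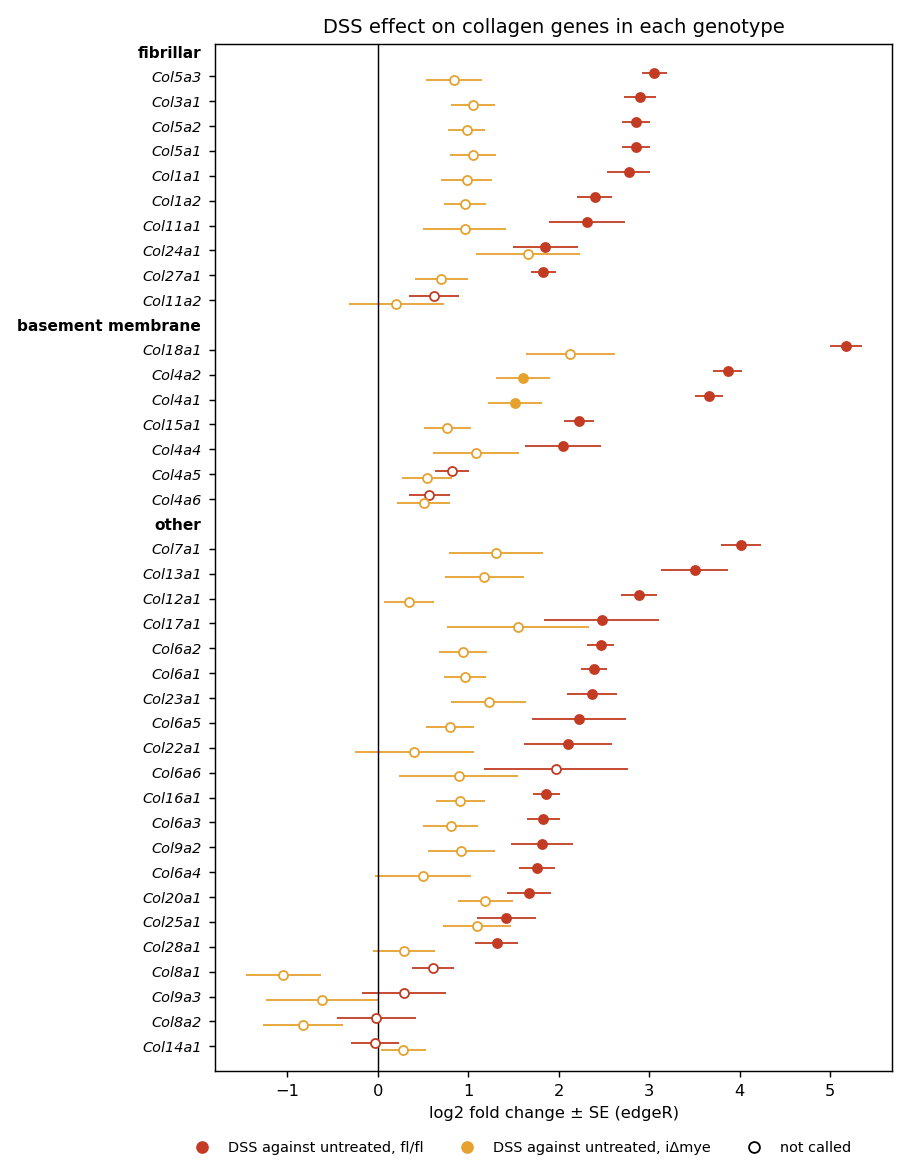
Log2 fold change for DSS (horizontal axis, edgeR) of the 38 tested collagen genes in Tmem173fl/fl (red) and Tmem173iΔmye mice (orange), grouped by class. Bars are SE, filled circles were called and open circles were not. Of the 38 genes 30 are filled for Tmem173fl/fl and 2, Col4a1 and Col4a2, for Tmem173iΔmye mice.

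The second comparison took DSS in mice of the Cre genotype. Only Col4a1, at 1.52 ± 0.30 (SE, edgeR adjusted p = 0.0292), and Col4a2, at 1.604 ± 0.30 (SE, edgeR adjusted p = 0.0253), were called higher, 2 of 38, with 0 lower. Over all genes 1.48% were called higher, 0.597% lower and 2.08% in either direction. The direction was still upward for 35 of 38 collagens, with a median log2 fold change of 0.93 against 0.02 over all genes. An unadjusted p under 0.05 in either direction was found for 25 of the 38, among them Col8a1, which was lower (-1.05 ± 0.41), and for 3749 of all 24102 genes. Of the 38 collagens, 23 had no overlap with all 3 colitic libraries higher (12.1% of all genes, with 9.25% lower). Col18a1 reached 2.13 ± 0.49 (SE, edgeR adjusted p = 0.0564) and Col3a1 1.05 ± 0.24 (SE, edgeR adjusted p = 0.0533), both just short of the threshold. Col5a2, at 0.98 ± 0.20 (SE, edgeR adjusted p = 0.0345), fell short of the fold. Col12a1 was at 0.34 ± 0.28 (SE, edgeR adjusted p = 0.611).

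The count in Tmem173iΔmye mice rested on single libraries. It was 11 without replicate 5 of the colitic group, 4 without its replicate 2 and 1 without its replicate 1, and 0 without any 1 of the untreated replicates 1, 2 and 3. DESeq2 called 8 collagens and limma 0. Without replicate 5, Col18a1 was called at 2.59 ± 0.27 (SE, edgeR adjusted p = 2.66e-04) and Col4a1 at 1.801 ± 0.23 (SE, edgeR adjusted p = 9.59e-04). Without replicate 1 neither was called, with Col18a1 at 1.54 ± 0.43 (SE, edgeR adjusted p = 0.161) and Col4a1 at 1.15 ± 0.23 (SE, edgeR adjusted p = 0.0560). The 3 colitic Tmem173iΔmye libraries differed from each other: replicate 1 was above all 6 untreated libraries in 34 of the 38 tested collagens, replicate 2 in 23 and replicate 5 in 28. Replicate 1 was the highest of the 3 in 28 genes. Replicate 1 was below all colitic Tmem173fl/fl libraries in 29 genes, replicate 2 in 35 and replicate 5 in 30. With the 2 libraries above 1 FPKM of Xist in this comparison left out, 3 collagens were called, and with a term for Prss2, 5.

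Without DSS the genotypes were compared next. None of the 38 collagens was called between untreated Tmem173iΔmye and Tmem173fl/fl mice (0% of all genes by edgeR), 1 had an unadjusted p under 0.05 (Col8a1, 0.84 ± 0.38), and DESeq2 and limma called 0 as well, as did edgeR with the 2 libraries above 1 FPKM of Xist left out and with a term for Prss2. Log2 fold changes ran from -0.25 to 1.04, and those of the chains of types I, III, V and VI with a mean above 5 FPKM were between -0.21 and 0.14. No overlap was seen for 2 collagens, both higher in Tmem173iΔmye mice, against 3.78% of all genes higher and 3.5% lower. Over all genes 720 had an unadjusted p under 0.05 by edgeR, and DESeq2 called 1 higher and 2 lower.

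The genotypes under DSS were compared to ask whether collagen genes differed when colitis was induced in mice carrying the Lyz2-driven Cre. No loss of Tmem173 was detectable in these whole-colon libraries. Of 38 collagens, under DSS 15 were called lower in the Tmem173iΔmye genotype and 0 higher, where 1.99% of all genes were lower, 0.822% higher and 2.81% either. They were 6 of 10 fibrillar collagens (Col1a1, Col1a2, Col3a1, Col5a1, Col5a2 and Col5a3), 4 of 7 basement membrane collagens (Col4a1, Col4a2, Col15a1 and Col18a1) and 5 of 21 others (Col6a1, Col6a2, Col7a1, Col12a1 and Col13a1). The median log2 fold change was -1.03, against 0.02 for all genes. In 26 collagens all 3 colitic Tmem173iΔmye libraries were below all 3 colitic Tmem173fl/fl libraries, which held for 15.8% of all genes. Among them are Col4a4, Col11a1 and Col22a1, which passed the minimum level only through colitic libraries. This comparison and that of DSS in Tmem173fl/fl mice use the same 3 colitic Tmem173fl/fl libraries, so they are not independent.

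The largest of these differences were those of Col7a1, Col18a1 and Col12a1. Col7a1 differed by -2.83 ± 0.38 (SE, edgeR adjusted p = 0.0153), Col18a1 by -2.81 ± 0.53 (SE, edgeR adjusted p = 0.0318) and Col12a1 by -2.52 ± 0.33 (SE, edgeR adjusted p = 0.0137). Next came Col4a2 at -2.08 ± 0.33, Col4a1 at -2.01 ± 0.32, Col5a3 at -1.86 ± 0.30 and Col13a1 at -1.85 ± 0.37. Col5a2, whose 3 colitic Tmem173iΔmye values were between 10.6 and 14.4 FPKM, had the smallest adjusted p (-1.78 ± 0.20 (SE, edgeR adjusted p = 0.00921)). Type III and type I chains differed by -1.73 ± 0.27 for Col3a1, -1.69 ± 0.33 for Col1a1 and -1.36 ± 0.24 for Col1a2, and Col5a1 by -1.601 ± 0.26. The remaining called genes were Col6a2 at -1.56 ± 0.28, Col6a1 at -1.33 ± 0.25 and Col15a1 at -1.25 ± 0.22. Col6a3 was at -1.17 ± 0.34 (SE, edgeR adjusted p = 0.104) and Col16a1 at -0.92 ± 0.26 (SE, edgeR adjusted p = 0.0958), which did not pass. Col14a1 was at 0.42 ± 0.26 (SE, edgeR adjusted p = 0.407), the most positive value of the 38.

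This count depended on single libraries more than that of DSS in Tmem173fl/fl mice. Leaving out colitic Tmem173fl/fl replicate 1 gave 0 calls, and so did leaving out colitic Tmem173iΔmye replicate 2. It was 3 without replicate 3 and 7 without replicate 2 of the colitic Tmem173fl/fl mice, 11 without replicate 5 and 20 without replicate 1 of the colitic Tmem173iΔmye mice. The sizes moved less than the calls. Col18a1 ranged from -3.42 to -2.38, Col7a1 from -3.38 to -2.54, Col12a1 from -2.76 to -2.24 and Col3a1 from -1.94 to -1.56 over the 6 fits with a library left out, and their edgeR adjusted p reached at most 0.12, 0.0689, 0.0684 and 0.0965. Without replicate 5, Col18a1 was called at -2.38 ± 0.27 (SE, edgeR adjusted p = 0.0120). limma on log2(FPKM + 0.1) called 1 collagen, Col5a2, and with a pseudocount of 1 it called 10. Without replicate 5 of the colitic Tmem173iΔmye mice, Col1a1, Col6a1, Col13a1 and Col15a1 were no longer called, at edgeR adjusted p of 0.0728, 0.0561, 0.0617 and 0.0538. Replicate 5 is the 1 library above 1 FPKM of Xist in this comparison. With a term for Prss2, 11 were called.

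**Figure D4:**
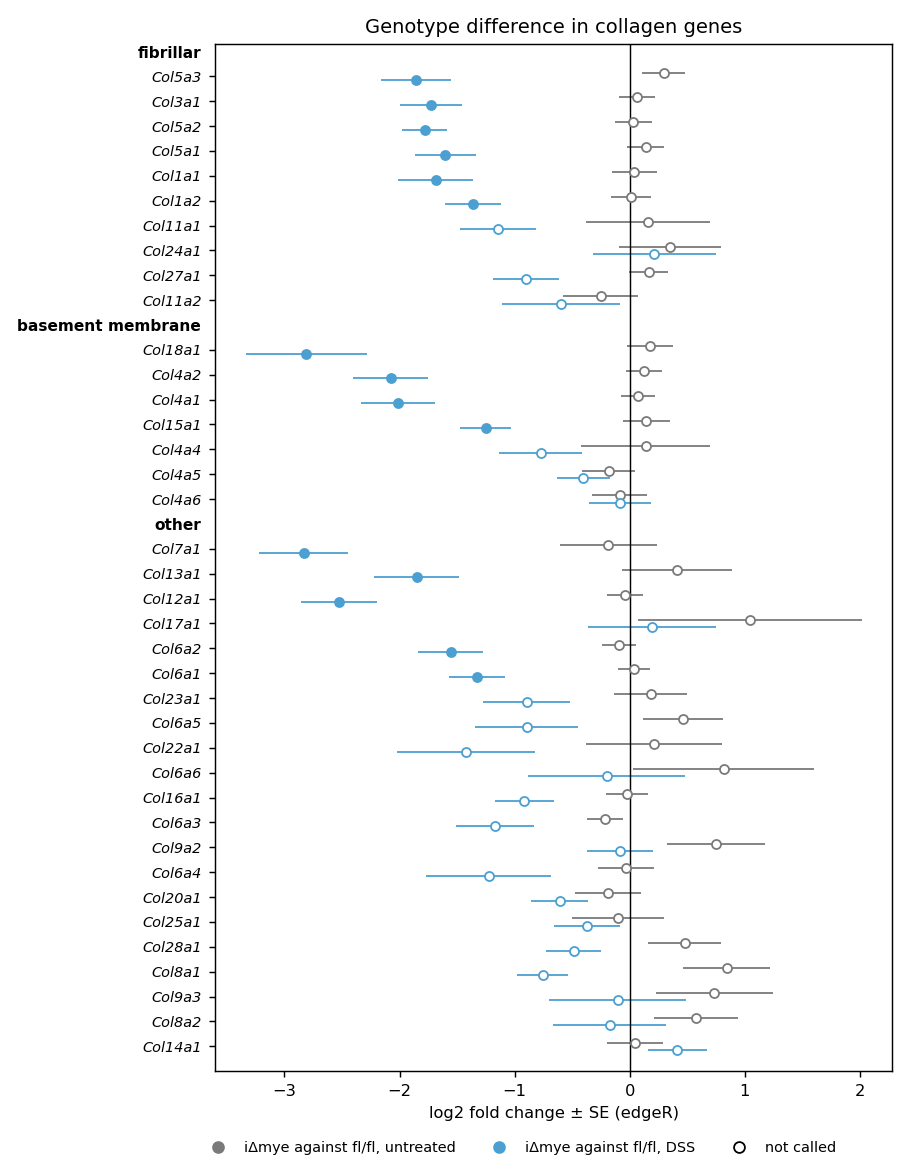
Log2 fold change between genotypes (Tmem173iΔmye against Tmem173fl/fl, horizontal axis, edgeR) of the 38 tested collagen genes without DSS (grey) and with DSS (blue). Bars are SE, filled circles were called and open circles were not. All 15 filled circles are blue and lie between -2.83 and -1.25, and the grey ones lie between -0.25 and 1.04.

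Whether the DSS effect itself differed between genotypes was tested by an interaction term over all 12 libraries. A smaller rise in Tmem173iΔmye mice was called for 15 of 38 collagens, where 1.61% of all genes had a negative and 0.934% a positive interaction (2.55% either). The largest were Col18a1 at -2.97 ± 0.59 (SE, edgeR adjusted p = 0.019), Col7a1 at -2.64 ± 0.58 (SE, edgeR adjusted p = 0.0314) and Col12a1 at -2.47 ± 0.37 (SE, edgeR adjusted p = 0.00617). With the 3 libraries above 1 FPKM of Xist left out, 5 of the 15 were called (Col4a1, Col4a2, Col5a2, Col12a1 and Col18a1), and with a term for Prss2, 8. With one library left out at a time the count was from 7 to 18. It was 7 without replicate 3 of the untreated Tmem173fl/fl mice, and 9 without replicate 2 of that group, without replicate 1 or 3 of the untreated Tmem173iΔmye mice, without replicate 1 of the colitic Tmem173fl/fl mice or without replicate 2 of the colitic Tmem173iΔmye mice. The minor chains Col4a5 (-0.21 ± 0.34) and Col4a6 (0.01 ± 0.35) and the fibrillar Col24a1 (-0.12 ± 0.73) had the values nearest to 0 among the fibrillar and basement membrane collagens.

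The genes that make and mature collagen were counted from lists. Beside these counts, 14.9% of all genes were called higher with DSS in Tmem173fl/fl mice, 1.48% higher with DSS in Tmem173iΔmye mice and 1.99% lower between colitic genotypes. Of 18 folding and modification genes, 11 rose in Tmem173fl/fl mice given DSS (median log2 fold change 1.54, against 0.03 over all genes). Fkbp10, a chaperone of procollagen, rose by 3.05 ± 0.19, and the prolyl 3-hydroxylases P3h3 and P3h1 by 2.59 ± 0.19 and 2.62 ± 0.25. Plod2, the lysyl hydroxylase of telopeptides, rose by 1.83 ± 0.17. In the same list P4hb, the shared subunit of prolyl 4-hydroxylase, was at 0.04 and Ppib, a cyclophilin of the endoplasmic reticulum, at -0.22, and neither passed. Between colitic genotypes 6 of the 18 were lower, among them Fkbp10 at -1.70 ± 0.28 and Crtap at -1.17 ± 0.22.

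Of 9 tested propeptide processing genes, 6 were called higher with DSS in Tmem173fl/fl mice and 3 lower between colitic genotypes (14.9% and 1.99% of all genes). The procollagen N-proteinases Adamts2 and Adamts14 rose by 2.66 ± 0.14 and 3.78 ± 0.30, and the C-proteinase Bmp1 by 2.86 ± 0.16. Adamts2, Adamts14 and Bmp1 were lower in colitic Tmem173iΔmye mice, at -1.58 ± 0.17, -2.51 ± 0.51 and -1.68 ± 0.24. All 6 cross-linking genes rose in Tmem173fl/fl mice. Lox, the lysyl oxidase that starts the cross-linking of fibrils, rose by 5.56 ± 0.24, more than any collagen, and was at -2.63 ± 0.21 between colitic genotypes, where Loxl2 and Loxl1 were lower too, at -2.001 ± 0.20 and -1.83 ± 0.31. Of 7 tested small proteoglycans, Dcn (decorin, 3.35 ± 0.22), Bgn (biglycan, 2.30 ± 0.17) and Lum (lumican, 1.81 ± 0.18) rose and Ogn (osteoglycin) fell by 1.14 on the log2 scale. Between colitic genotypes Dcn and Bgn were lower, at -1.78 ± 0.23 and -1.32 ± 0.25.

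Of 10 collagen receptors, 4 were called higher with DSS in Tmem173fl/fl mice, namely the receptor kinase Ddr2 (2.04 ± 0.15), the endocytic receptor Mrc2 (3.22 ± 0.24) and the integrin subunits Itga1 (1.29 ± 0.15) and Itga10 (1.21 ± 0.34), and Mrc2 alone was lower between colitic genotypes (-1.58 ± 0.31). Of 15 partners of collagen in the basement membrane, 12 rose in Tmem173fl/fl mice and 8 were lower in colitic Tmem173iΔmye mice (14.9% and 1.99% of all genes). The laminin chains Lama1, Lamb1 and Lamc1 rose by 4.54 ± 0.21, 3.18 ± 0.16 and 2.84 ± 0.15 and the nidogen Nid1 by 2.52 ± 0.14. Of 7 tested collagen-degrading proteases, 6 rose in Tmem173fl/fl mice and 5 were lower between colitic genotypes. Mmp8 and Mmp9, proteases of neutrophils among other cells, rose by 9.16 ± 0.47 and 6.20 ± 0.32, Mmp2, a gelatinase of fibroblasts, by 3.98 ± 0.20 and Mmp13 by 5.68 ± 0.35. Mmp2 and Mmp13 differed by -2.57 ± 0.38 and -2.95 ± 0.50 between colitic genotypes. In Tmem173iΔmye mice DSS called 1 of 18 folding, 2 of 9 processing, 1 of 6 cross-linking, 2 of 7 proteoglycan, 1 of 10 receptor, 3 of 15 partner and 2 of 7 protease genes higher, where 1.48% of all genes were. The list counts were not refitted with libraries left out.

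Markers of several cell types moved with collagen. Over 15 fibroblast markers that are not collagens, the summed level was 203 to 251 FPKM in untreated Tmem173fl/fl, 214 to 258 in untreated Tmem173iΔmye, 1009 to 1149 in colitic Tmem173fl/fl and 386 to 482 in colitic Tmem173iΔmye mice. Of these 15, 12 were called higher with DSS in Tmem173fl/fl mice and 6 lower between colitic genotypes (14.9% and 1.99% of all genes). The collagen sum divided by this marker sum was 0.955 to 1.29 and 1.03 to 1.13 in the untreated groups, 1.56 to 1.78 in colitic Tmem173fl/fl and 0.914 to 1.58 in colitic Tmem173iΔmye mice. All 10 endothelial markers rose in Tmem173fl/fl mice, with sums of 21.4 to 25.1 FPKM without and 92.3 to 137 FPKM with DSS, against 23.9 to 29.3 and 41.9 to 68.4 FPKM in Tmem173iΔmye mice, and 4 of the 10 were lower between colitic genotypes. Of 7 pericyte markers 6 rose, with sums of 30.2 to 49.0 and 229 to 237 FPKM in Tmem173fl/fl and 30.6 to 64.1 and 103 to 119 FPKM in Tmem173iΔmye mice. None of the 10 smooth muscle markers was called in Tmem173fl/fl mice, with sums of 1045 to 1418 FPKM without and 977 to 1144 FPKM with DSS. Of 10 epithelial markers 6 fell (7.61% of all genes were called lower), from a sum of 6805 to 8438 FPKM to 2786 to 4874 FPKM in Tmem173fl/fl mice, and colitic Tmem173iΔmye mice were at 5666 to 6996 FPKM. Of 9 leukocyte markers, DSS called 6 higher in Tmem173fl/fl mice, where 2 had negative changes, and 4 higher in Tmem173iΔmye mice. Between colitic genotypes 3 were called lower, with 6 changes negative and 3 positive. Their sums were 147 to 250 and 791 to 928 FPKM in Tmem173fl/fl and 98.3 to 125 and 318 to 427 FPKM in Tmem173iΔmye mice. These sums include Lyz2, the gene that drives the Cre. Lyz2 was at 111 to 206 FPKM in untreated Tmem173fl/fl and 56.7 to 85.8 FPKM in untreated Tmem173iΔmye mice. With DSS it was at 259 to 386 and 173 to 265 FPKM, and the sums were not taken without it. Of 7 glial markers 4 were called higher in Tmem173fl/fl mice and 0 lower between colitic genotypes. The part of these cell types in the collagen values was not tested.

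Several collagen genes lie beside each other on a chromosome, and their changes are set side by side as a description. The log2 fold changes of Col3a1 and Col5a2 with DSS in Tmem173fl/fl mice were 2.90 and 2.85, those of Col6a2 and Col6a1 2.46 and 2.39, of Col4a1 and Col4a2 3.66 and 3.87, of Col4a6 and Col4a5 0.57 and 0.82, of Col6a6 and Col6a5 1.97 and 2.22, and of Col6a5 and Col6a4 2.22 and 1.76. The values of Col4a6, Col4a5 and Col6a6 were not called. Of the 44 members 35 have a start-site window in the RefSeq table of GRCm38.p6, 38 windows in all. In the 250 bases before the start, the letters CCAAT stood on either strand in 13 of these 38 windows and in 33.8% of all 32851 windows, GGGCGG in 22 of 38 and 32.7%, TATAAA in 5 of 38 and 12.4%, and TGANTCA in 1 of 38 and 6.75%. The windows of Col3a1, the collagen of highest level, and Col7a1 are shown because both genes rose under DSS although their upstream letters differ. In Col3a1 the capitals mark TATAAA, and in Col7a1 they mark CCAAT as read on the opposite strand. The Col7a1 window also holds GGGCGG 1 time, left in lower case.
Col3a1, chr1:45311288-45311537, forward strand: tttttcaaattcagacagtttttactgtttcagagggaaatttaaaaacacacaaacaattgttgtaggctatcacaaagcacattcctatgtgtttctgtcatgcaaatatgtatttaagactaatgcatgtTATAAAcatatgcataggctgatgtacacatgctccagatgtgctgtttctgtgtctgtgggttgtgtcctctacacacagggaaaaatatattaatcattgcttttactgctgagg
Col7a1, chr9:108953336-108953585, forward strand: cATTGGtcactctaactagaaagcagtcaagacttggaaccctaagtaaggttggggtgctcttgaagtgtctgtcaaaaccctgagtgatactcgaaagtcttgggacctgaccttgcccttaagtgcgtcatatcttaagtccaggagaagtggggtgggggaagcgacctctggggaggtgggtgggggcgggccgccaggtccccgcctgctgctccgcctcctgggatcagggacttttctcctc
A match of letters describes the window and shows no bound factor.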

How the data were processed

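The authors sequenced polyA RNA of total colon and deposited whole-number counts per gene with FPKM values and gene lengths. The submitters' processing notes name CASAVA 1.8, fastp, HISAT2 2.0.5, featureCounts 1.5.0-p3 and DESeq2 1.20.0 on GRCm38. Use of strand is not given in the sources used here, and Col4a1 and Col4a2 overlap. Deposited FPKM equal the counts over length and library total times 1 constant per library. The authors' comparison columns (group means, fold changes, p-values) were not used.

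The counts were tested with edgeR 4.0.16 (quasi-likelihood, TMM) in R 4.3.3 on the 24102 genes that reached 0.1 FPKM in 3 or more libraries, 2 groups per fit and all 12 libraries for the interaction, with Benjamini-Hochberg adjustment over all genes. A call needed an adjusted p under 0.05 and a change of 1 or more on the log2 scale in either direction. SE is the fold change over the root of F. Sums and ratios of FPKM were compared by exact two-sided permutation. The fits were tested on simulated data. Alternatives were other scalings and filters, DESeq2 1.42.0, limma 3.58.1 on log2(FPKM + 0.1) or log2(FPKM + 1), CPM or TPM sums, a replicate block, each library left out and, chosen after seeing the data, the libraries with Xist under 1 FPKM alone and a term for Prss2. Library totals of 13823237 to 18718915 counts set the precision. Named were collagens called in any test, up to 25 by adjusted p, and all chains of types I, III, IV, V, VI, XII, XIV, XV and XVIII, with at most 4 genes per other list by adjusted p. Ppib and P4hb, and Col8a1, Col8a2, Col9a3 and Col11a2, were named after their values were seen. Members and lists were chosen with earlier results of these data known.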

Additional observations from a re-analysis of the deposited data

Results flagged for a closer look

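The response of 15 of 38 tested collagen genes to DSS differed between the genotypes by the test of the difference itself (edgeR interaction over 12 libraries, adjusted p under 0.05). Of all genes, 2.55% were called in either direction. On the libraries with Xist under 1 FPKM alone 5 of the 15 were called, and with a term for Prss2, 8. Each difference is on the log2 scale, Tmem173iΔmye minus Tmem173fl/fl. Among basement membrane collagens it was -2.97 for Col18a1, -2.19 for Col4a2, -2.07 for Col4a1 and -1.38 for Col15a1. For fibrillar collagens it was -2.14 for Col5a3, -1.80 for Col5a2, -1.78 for Col3a1, -1.73 for Col5a1, -1.72 for Col1a1 and -1.36 for Col1a2. The others were Col7a1 at -2.64, Col12a1 at -2.47, Col13a1 at -2.25, Col6a2 at -1.45 and Col6a1 at -1.35. Of the 12 fits that each left out 1 library, Col3a1, Col4a1, Col4a2, Col5a1, Col5a2, Col5a3 and Col12a1 were called in 12, Col6a1 and Col18a1 in 10, Col1a2 in 6, Col6a2 and Col15a1 in 5, Col1a1 and Col7a1 in 4 and Col13a1 in 2.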

How the results depend on the processing

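Over the alternatives, none of the collagen genes called by edgeR changed sign. For single genes, 17 refitted values lost and 577 kept the call for DSS in Tmem173fl/fl mice, 12 lost and 28 kept it for DSS in Tmem173iΔmye mice, 81 and 219 between colitic genotypes, and 75 and 300 for the interaction. For DSS in Tmem173fl/fl mice and between colitic genotypes, leaving out the libraries above 1 FPKM of Xist is the same fit as leaving out 1 replicate, and it is counted under both. The 2 calls for DSS in Tmem173iΔmye mice became 13 with an unadjusted p, 4 with library totals alone, 4 with upper quartile scaling, 7 with no filter, 8 with DESeq2, 0 with limma at either pseudocount, 6 with one fit of all 12 libraries and 5 with a term for Prss2. The 15 calls between colitic genotypes became 1 with limma on log2(FPKM + 0.1), and the 15 of the interaction 9 with that test, 5 on the libraries with Xist under 1 FPKM alone and 8 with a term for Prss2. With each library left out, these counts ran from 0 to 11, from 0 to 20 and from 7 to 18, and that for DSS in Tmem173fl/fl mice from 30 to 31. The 30 calls for DSS in Tmem173fl/fl mice became 27 with limma on log2(FPKM + 0.1) and 21 on log2(FPKM + 1). They became 24 of 28 tested with a minimum of 1 FPKM in 3 libraries. The summed level with TPM in place of FPKM gave 3.04 for all, 3.94 for basement membrane and 2.38 for other collagens for DSS in Tmem173fl/fl mice. With CPM the share of the other collagens moved by -9.81 percentage points there and by 3.95 between colitic genotypes. Library totals alone moved the median of all genes for DSS in Tmem173fl/fl mice from 0.03 to 0.16 on the log2 scale. The cause was not tested for any of these. Same-numbered libraries had correlations of -0.19 to 0.21 and differently numbered ones of -0.47 to 0.34. These ranges overlap, so they cannot decide whether replicate numbers pair the samples. With a replicate block 13 collagens were called for DSS in Tmem173iΔmye mice. The block gave 30, 0, 15 and 14 for DSS in Tmem173fl/fl mice, between untreated and between colitic genotypes and for the interaction.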
